A study of Mus musculus with 36 samples.

Results

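The 10 genes described here, Atf3, Atf4, Ddit3, Ddit4, Trib3, Chac1, Asns, Sesn2, Hspa5 and Xbp1, belong to the integrated stress response and to the unfolded protein response of the endoplasmic reticulum (ER). They were chosen by name, as 10 of the 55358 genes of the count table, and all of them were among the 15114 genes with enough reads to be tested. Poly(A) RNA was sequenced from mouse keratinocytes of 3 genotypes, each cultured in low calcium medium (LCM) or high calcium medium (HCM) and harvested after 24 h or 72 h, with 3 libraries in each of the 12 groups. WT cells were primary keratinocytes from newborn Pkp4+/+ pups. PKP4-KO cells came from other pups, Pkp4-/-, with an allele that lacks exon 9. It derives from the tm1b allele of a C57BL/6N line, whose lacZ reporter was removed by a cross with FLPe-transgenic mice. The resulting mice were backcrossed to C57BL/6J. Rescue cells were the same PKP4-KO cells after lentiviral transduction with human PKP4 tagged at its N-terminus with EGFP, held as a stable line under puromycin selection. The series calls the 3 libraries of a group biological replicates. Nothing shows that they come from separate animals, so that p-values measure the spread between these libraries.

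When eIF2alpha is phosphorylated by one of its kinases, translation of most mRNAs is lowered while that of Atf4 mRNA is favoured, and the ATF4 protein then activates genes of amino acid supply together with Ddit3, Trib3, Chac1 and Asns. Unfolded protein in the ER is sensed by PERK, IRE1 and ATF6. PERK is one of the eIF2alpha kinases, IRE1 splices Xbp1 mRNA, and ATF6 and XBP1 activate chaperone genes such as Hspa5. Calcium starts junction formation and differentiation in cultured keratinocytes, and the ER is one of their calcium stores. The counts measure RNA per gene, so that neither ATF4 protein nor the splicing of Xbp1 was measured.

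Short stretches around letters known from the promoters of such genes are shown for the 5 genes in which they were found, since they place ATF4-type and ER stress-type elements among the members. They come from RefSeq windows of 300 bases (250 before and 50 from the transcription start), given by RefSeq on GRCm38.p6. All 10 members had 1 window, and each was found once, letter for letter, in GRCm39, from which the positions below are taken. The letters TGATGNAA, the core of the C/EBP-ATF response element, were searched on both strands and were present in 4 members and in 3.97% of all 32851 windows. The ER stress response element, which is CCAAT, any 9 bases and CCACG, was present in Hspa5 and in 0.119% of all windows. Sequences run 5′ to 3′ on the strand of the gene, and capitals mark the element, which in Atf3, Chac1 and Trib3 lies on the other strand.
Atf3 (chr1:190915593-190915680, reverse strand): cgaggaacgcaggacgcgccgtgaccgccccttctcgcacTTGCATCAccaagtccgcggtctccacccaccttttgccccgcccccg
Chac1 (chr2:119181520-119181547, forward strand): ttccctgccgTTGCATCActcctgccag
Asns (chr6:7693215-7693242, reverse strand): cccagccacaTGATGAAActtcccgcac
Trib3 (chr2:152185949-152185976, reverse strand): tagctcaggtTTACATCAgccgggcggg
Hspa5 (chr2:34662032-34662060, forward strand): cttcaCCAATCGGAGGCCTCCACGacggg
The Atf3 element began 110 bases before the start used by RefSeq, that of Chac1 193 bases, that of Asns 23 bases and that of Hspa5 65 bases before it. The Trib3 element lay past the start, from base 15 to base 22 of the transcript, in exonic sequence of Trib3. The stretches of Chac1, Asns and Hspa5 also overlapped exons of these genes, and that of Asns an exon of 1700012J15Rik on the other strand, in the annotation used here, while that of Atf3 overlapped no exon. In Atf4, Ddit3, Ddit4, Sesn2 and Xbp1 neither element was found, and the letters TGACGTCA and TGACGTGG, present in 1.79% and 0.676% of all windows, were in none of the 10.

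The targeted gene was checked first. Pkp4 lay between 33.4 and 76.3 CPM in the 12 WT libraries, between 6.52 and 11.9 in Rescue and between 6.396 and 14.1 in PKP4-KO, where CPM stands for edgeR's depth-scaled counts with TMM factors, the unit of all levels below. PKP4-KO means were 12.6% to 27.5% of the WT means in the 4 conditions (exact permutation test, p = 0.1 each, the smallest p that 3 against 3 libraries allow). The GFP-PKP4 transgene had 1902 to 15325 counts in Rescue and 0 to 113 in the other libraries. Totals per library lay between 13602728 and 22467187 counts. The 3 libraries of PKP4-KO at 72 h HCM stood apart in their TMM factors, which were 0.481 to 0.546 against 0.705 to 1.39 in the other 33 libraries. Rn18s.rs5, an 18S rRNA-related gene, was the most counted gene in replicates 1 and 2 of WT and replicate 3 of PKP4-KO at 24 h HCM. The same held for replicate 2 of PKP4-KO at 72 h in both media and for replicate 3 of Rescue at 24 h LCM. In the remaining libraries it was Krt14, Krt6a or Eef1a1. The 8 keratinocyte markers summed to at least 28569 CPM in every library. The markers of fibroblasts, melanocytes and endothelial cells summed to at most 11.6, 2.03 and 5.15 CPM, while the 4 immune markers summed from 62.2 to 178 CPM in Rescue, from 21.3 to 60.7 in WT and from 6.86 to 47.0 in PKP4-KO. Nearly all of the immune sum was Cd68, since the highest counts in a library were 4 for Ptprc, 7 for Cd74 and 65 for Lyz2. The 6 markers of differentiated keratinocytes ranged from 192 to 4165 CPM in WT and from 228 to 11374 in PKP4-KO. The part of these differences in the results below was not tested.

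Per kilobase of transcript, Asns and Atf4 were the most abundant members in WT, with medians over 12 libraries of 121 and 111 CPM per kb. Hspa5 followed with 49.1, then Ddit4 with 19.8, Xbp1 with 17.5, Chac1 with 13.6 and Trib3 with 10.99 CPM per kb. Ddit3 and Sesn2 had 6.80 and 5.95 CPM per kb, and Atf3 had 0.605. In PKP4-KO the median of Trib3 was 124 CPM per kb, and that of Atf4 308. The lowest count of any member in a library was 12 (Atf3 in WT), above the floor of 3 counts. All further levels are CPM without division by length. A change in such a level in a culture cannot be told apart from a change in the share of cells that express the gene.

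**Figure D1:**
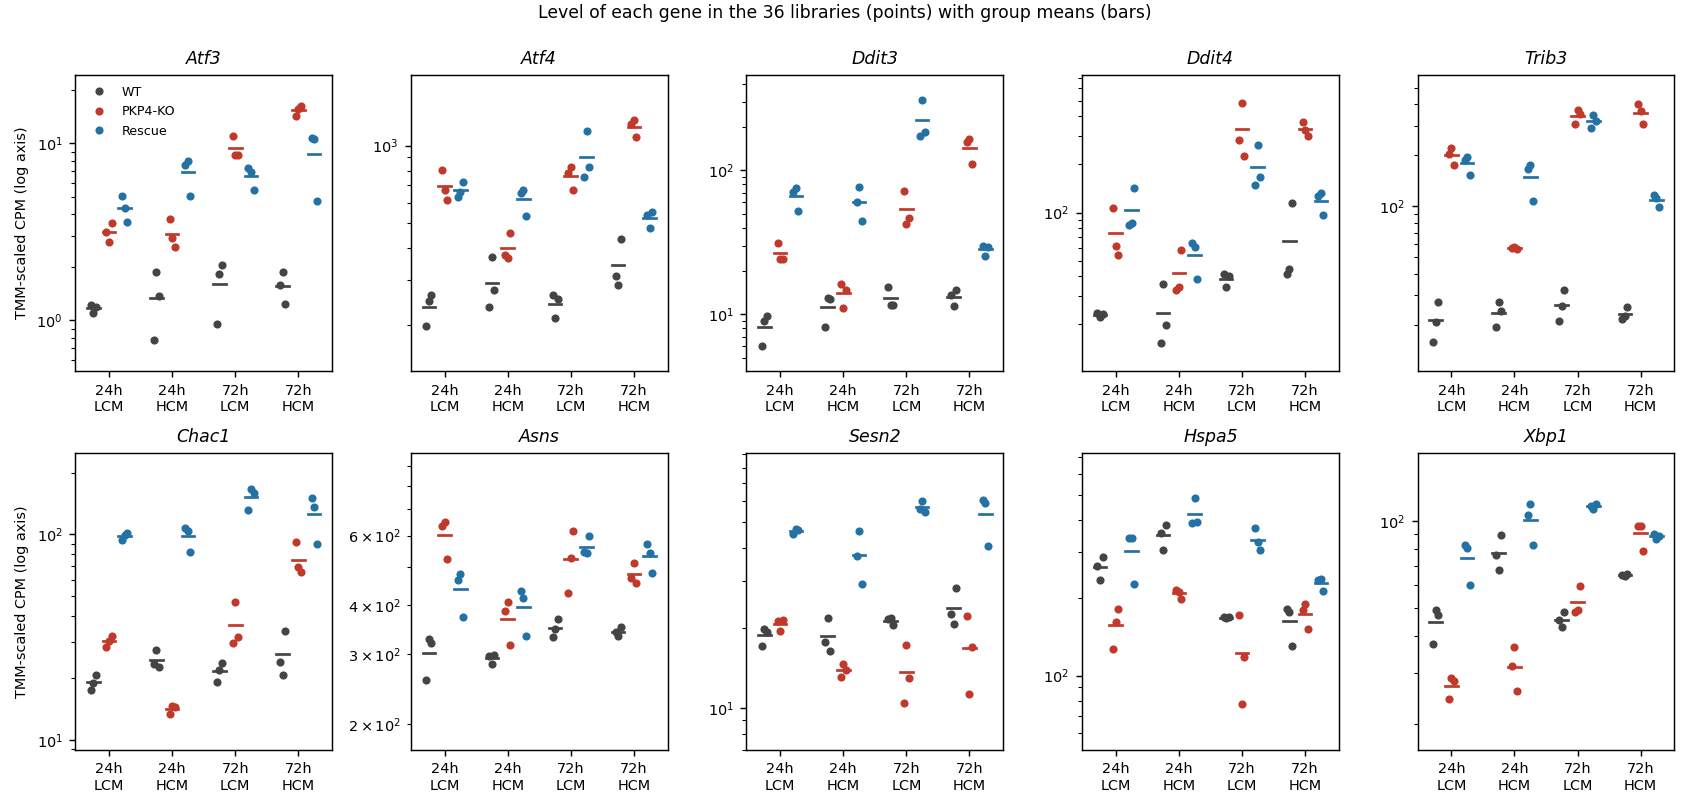
TMM-scaled CPM (log axis) of each of the 10 genes in the 36 libraries, by culture condition on the horizontal axis and by genotype in colour. Points are libraries and bars the means of 3 libraries. Trib3 lay between 16.0 and 32.0 CPM in WT and between 55.9 and 399.9 in PKP4-KO, with no overlap, while Hspa5 ranges of the genotypes overlapped.

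In all conditions but 24 h HCM, Atf3, Atf4, Ddit3, Ddit4, Trib3, Chac1 and Asns were each higher in PKP4-KO cells than in WT cells. At 24 h HCM only Atf3, Atf4, Trib3 and Asns were higher, while Chac1 was lower, and Hspa5 and Xbp1 were lower at 24 h in both media. Trib3, the pseudokinase that binds ATF4 and restrains it, differed most in 3 of the 4 conditions. At 24 h LCM, 7 members were called higher in PKP4-KO and 2 lower (edgeR's quasi-likelihood test, Benjamini-Hochberg adjusted p below 0.05 over all tested genes). Beside this stand 40.2% of all tested genes, 19.7% higher and 20.6% lower. In HCM at that time 4 were higher and 3 lower, beside 42.8% of all genes (20.7% higher, 22.2% lower). At 72 h LCM, 7 were higher and 1 lower, beside 45.1% (21.3% higher, 23.8% lower). After 72 h in HCM 8 were higher and 1 lower, beside 51.8% (21.9% higher, 29.9% lower). The median log2 fold change of the 10 members was 1.21, 0.33, 1.19 and 1.66 in this order, and that of all tested genes was 0.0033, -0.0016, 0.02 and -0.07.

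Rescue cells also had more RNA of most members than WT cells, and every member called against WT was higher. At 24 h LCM, 9 members were higher than in WT, beside 24.8% of all tested genes called (13.5% higher, 11.4% lower). In HCM at that time 8 were higher, beside 23.2% (11.8% higher, 11.4% lower). All 10 members were higher at 72 h LCM, beside 32.4% (17.9% higher, 14.6% lower). After 72 h in HCM 8 were higher, beside 36.2% (19.5% higher, 16.7% lower). The median log2 fold change of the members against WT was 1.69, 1.15, 1.96 and 0.97 in the 4 conditions. The comparisons of PKP4-KO and of Rescue with WT share the WT libraries, so that likeness between them is not independent.

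**Figure D2:**
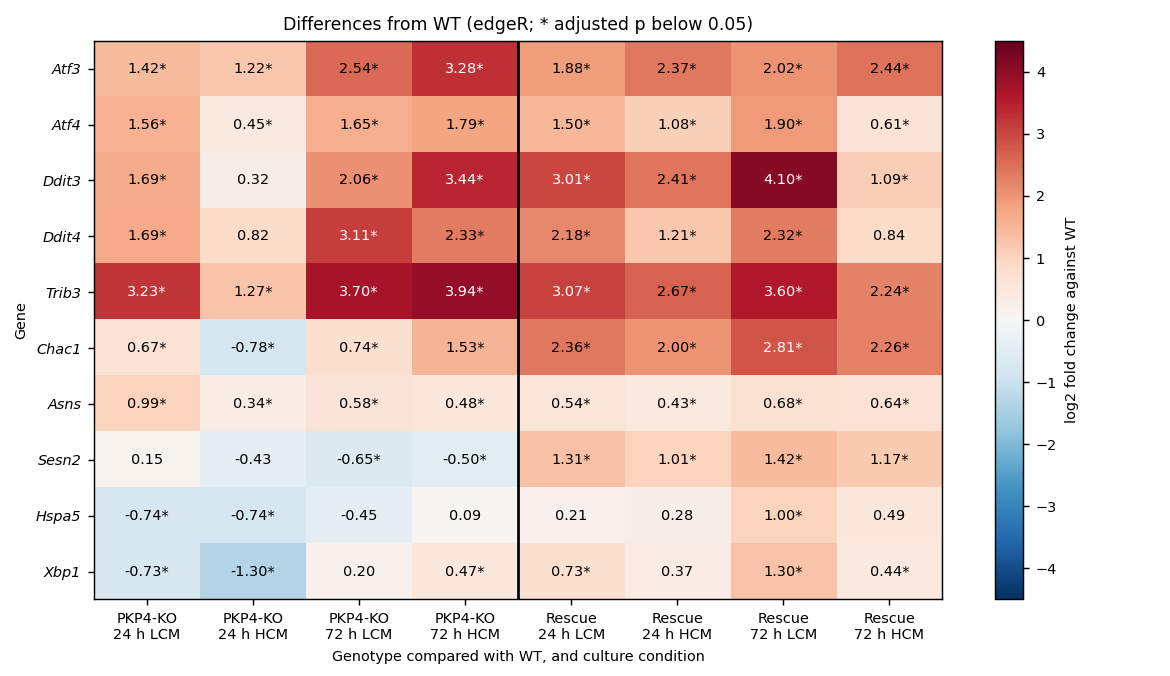
log2 fold change of each gene (rows) in PKP4-KO and Rescue against WT (columns, 4 culture conditions each), with colour for size and direction and a star where the adjusted p was below 0.05. Trib3 was called higher in all 8 columns, Sesn2 was negative in 3 of 4 PKP4-KO columns and positive in all 4 Rescue columns, and Hspa5 was called in 3 of 8 columns.

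Atf4 encodes the central transcription factor of the integrated stress response. Its RNA was at 199, 248 and 263 CPM in the 3 WT libraries at 24 h LCM and at 801, 674 and 614 in PKP4-KO (log2 fold change 1.56, SE 0.18, adjusted p = 6.55e-08). In HCM at 24 h the values were 235, 368 and 275 CPM in WT and 377, 366 and 458 in PKP4-KO, which overlapped by 1 library of each group (log2 fold change 0.45, SE 0.18, adjusted p = 0.0406). This call was lost without a filter on low counts (adjusted p = 0.0848), with only both groups in the fit (adjusted p = 0.203) and without replicate 1 or 3 of either group (adjusted p = 0.0527 to 0.222). The 178 tested genes within 5 Mb of Atf4 had a median log2 fold change of 0.44 in the same comparison. The PKP4-KO libraries at 72 h HCM had 1215, 1261 and 1077 CPM and WT libraries 309.7, 288 and 432 (log2 fold change 1.79, SE 0.18, adjusted p = 4.56e-09). The PKP4-KO group at 72 h HCM was the highest of the 12 in Atf4, with a mean of 1184 ± 95.7 (SD, n = 3). At the same time in LCM its mean was 759.9 ± 80.3 CPM against 243 ± 25.8 in WT (log2 fold change 1.65, SE 0.18, adjusted p = 2.18e-08). Rescue means were 671 and 621 CPM at 24 h and 907 and 523 CPM at 72 h in LCM and HCM, all called higher than WT, by log2 fold changes of 1.505, 1.08, 1.90 and 0.61, the last of which was not called without WT replicate 2 (adjusted p = 0.0507).

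Ddit3 encodes CHOP, a transcription factor that ATF4 induces and that is linked to cell death under lasting ER stress. In WT it lay between 6.03 and 15.5 CPM over all 12 libraries. PKP4-KO libraries had 31.1, 24.3 and 24.1 CPM at 24 h LCM and 16.3, 11.1 and 14.8 at 24 h HCM, where WT had 8.19, 13.1 and 12.7 and the groups overlapped (log2 fold change 0.32, 95% interval -0.21 to 0.84, adjusted p = 0.344). At 72 h they had 72.4, 42.8 and 46.9 CPM in LCM and 157, 165 and 111 in HCM, against 13.6, 11.5 and 14.7 in WT at 72 h HCM (log2 fold change 3.44, SE 0.27, adjusted p = 3.57e-11). All 3 PKP4-KO libraries at 72 h HCM were above every WT library, and the difference from WT was 10.9-fold. The highest group of all was Rescue at 72 h LCM with 172, 309 and 186 CPM, 17.2-fold above WT (log2 fold change 4.10, SE 0.28, adjusted p = 4.00e-12). In HCM at 72 h, Rescue had 29.9, 25.4 and 29.4 CPM, which was above WT (log2 fold change 1.09, SE 0.26, adjusted p = 0.00143) and below PKP4-KO (log2 fold change -2.35, SE 0.26, adjusted p = 1.41e-08). Reads of Ddit3 may be shared with genes on the other strand that overlap it, Mars1 (up to 3685 counts) and Mbd6 (up to 651), if counting ignored strand, a setting not given in the sources used here.

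Atf3, a factor of the same family that is induced early by many stresses, was the rarest member. WT libraries had between 0.773 and 2.05 CPM, PKP4-KO between 2.59 and 16.4 and Rescue between 3.60 and 10.7, so that neither group overlapped with WT. Its mean in PKP4-KO was 3.16 ± 0.399 CPM at 24 h LCM, 3.08 ± 0.586 at 24 h HCM, and after 72 h 9.41 ± 1.41 in LCM and 15.5 ± 1.02 in HCM (SD, n = 3). The difference from WT at 72 h HCM was 9.70-fold (log2 fold change 3.28, SE 0.31, adjusted p = 1.39e-09). In Rescue it was 3.67-fold, 5.17-fold, 4.04-fold and 5.44-fold above WT in the 4 conditions, each call with an adjusted p of 3.07e-05 or below.

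By log2 fold change, Trib3 differed more from WT than the other 9 members in PKP4-KO in 3 of 4 conditions, all but 24 h HCM, and in Rescue at 24 h in both media. WT libraries had 16.0, 20.8 and 27.3 CPM at 24 h LCM, 19.4, 27.2 and 24.1 at 24 h HCM, and after 72 h 21.0, 26.0 and 32.0 in LCM and 21.6, 22.7 and 25.5 in HCM. In PKP4-KO the values were 205, 220.1 and 174 CPM at 24 h LCM, 56.7, 57.6 and 55.9 at 24 h HCM, and after 72 h 307, 369 and 351 in LCM and 399.9, 364 and 306 in HCM. The 3 PKP4-KO libraries at 24 h HCM were close together and far below the other PKP4-KO libraries, but above all 12 WT libraries. The difference from WT was 9.35-fold at 24 h LCM (log2 fold change 3.23, SE 0.20, adjusted p = 2.01e-13), 2.41-fold at 24 h HCM (adjusted p = 2.21e-06), and after 72 h 13.01-fold in LCM (adjusted p = 1.68e-14) and 15.3-fold in HCM (adjusted p = 7.71e-15). Rescue libraries had 188, 196 and 154 CPM at 24 h LCM, 166, 177 and 107 at 24 h HCM, and after 72 h 292, 344 and 321 in LCM and 117, 113 and 99.6 in HCM. None of the 12 Rescue libraries reached down to the WT range. At 72 h HCM Rescue was below PKP4-KO (log2 fold change -1.70, SE 0.19, adjusted p = 1.37e-08), at 24 h HCM it was above (log2 fold change 1.40, SE 0.19, adjusted p = 4.43e-07), and in LCM the difference did not pass the test (log2 fold change -0.15, 95% interval -0.53 to 0.22, at 24 h and -0.10, -0.48 to 0.27, at 72 h).

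Trib3, Chac1 and Hspa5 lie on chromosome 2, as Pkp4 does, at distances of 93.2, 60.2 and 24.3 Mb from it. The 119 tested genes within 5 Mb of Trib3 had a median log2 fold change of PKP4-KO over WT between 0.54 and 0.60 over the 4 conditions, and between -0.26 and -0.19 in Rescue against WT. Around Chac1 (109 genes) these medians lay between 0.34 and 0.51 in PKP4-KO, and around Hspa5 (128 genes) between -0.60 and -0.45. In Rescue against WT they lay between -0.12 and -0.01 around Chac1 and between -0.20 and -0.07 around Hspa5. Trib3 itself was at log2 fold changes of 1.27 to 3.94 in PKP4-KO and of 2.24 to 3.60 in Rescue, beyond the medians of its region. Hspa5 was at -0.74 at 24 h in both media, where the medians of its region were -0.45 in LCM and -0.50 in HCM. At 72 h it was at -0.45 in LCM and 0.09 in HCM, beside regional medians of -0.57 and -0.60. The windows of the members on other chromosomes had medians between -0.30 and 0.51 in PKP4-KO against WT, the highest around Atf4. There the medians over 178 genes were 0.51, 0.44, 0.38 and 0.26 at 24 h LCM and HCM, then at 72 h LCM and HCM. Atf4 itself was at 1.56, 0.45, 1.65 and 1.79, so that at 24 h HCM it was close to the median of its region. What these regional shifts contribute was not tested.

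Chac1 and Sesn2 were higher in Rescue than in PKP4-KO in all 4 conditions. Chac1 degrades glutathione and is induced by ATF4. WT libraries had between 17.6 and 33.9 CPM. PKP4-KO had 28.4, 30.4 and 32.1 CPM at 24 h LCM, 13.4, 14.6 and 14.5 at 24 h HCM, and after 72 h 29.7, 46.8 and 31.6 in LCM and 91.5, 69.2 and 65.5 in HCM. It was higher than WT in 3 conditions, of which 72 h LCM was not called with total counts (0.32, adjusted p = 0.133), and lower at 24 h HCM (log2 fold change -0.78, SE 0.19, adjusted p = 0.00122), where the 3 PKP4-KO libraries were below the 3 WT libraries at 23.3, 27.3 and 22.6 CPM. In Rescue the means were 98.2 ± 3.97, 97.9 ± 13.6, 152 ± 18.6 and 125 ± 31.4 CPM (SD, n = 3), between 4.01-fold and 7.03-fold above WT. The difference of Rescue from PKP4-KO ran from 1.66-fold at 72 h HCM (log2 fold change 0.73, SE 0.19, adjusted p = 0.00116) to 6.90-fold at 24 h HCM (log2 fold change 2.79, SE 0.20, adjusted p = 2.80e-12).

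Sesn2 encodes sestrin 2, a leucine-binding regulator of mTORC1 that responds to ATF4 and to p53. It was called higher in PKP4-KO than in WT in none of the 4 conditions, by edgeR or by DESeq2, and lower at 72 h. At 72 h LCM the values were 10.5, 17.4 and 13.05 CPM in PKP4-KO and 21.6, 21.8 and 20.6 in WT (log2 fold change -0.65, SE 0.19, adjusted p = 0.00775), a call that was lost without PKP4-KO replicate 1 (adjusted p = 0.0603). At 72 h HCM, PKP4-KO had 22.2, 11.3 and 17.0 CPM and WT 22.6, 20.8 and 28.3, overlapping in 1 library (log2 fold change -0.50, SE 0.20, adjusted p = 0.0366), and DESeq2 did not call the difference (adjusted p = 0.104), nor did edgeR without WT replicate 1 or 3 or PKP4-KO replicate 2 or 3 (adjusted p = 0.0501 to 0.244). At 24 h HCM the log2 fold change of -0.43 (95% interval -0.82 to -0.03), with groups that did not overlap, and at 24 h LCM that of 0.15 (-0.24 to 0.54) did not pass the test. Rescue libraries lay between 29.4 and 60.8 CPM, above all 24 other libraries. They were 2.47-fold, 2.01-fold, 2.67-fold and 2.25-fold above WT in the 4 conditions, with adjusted p between 1.21e-06 and 2.45e-04.

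Ddit4 and Asns complete the ATF4-linked members. Ddit4, an inhibitor of mTORC1 that also responds to hypoxia, was at 285, 487 and 225 CPM in PKP4-KO and 41.4, 34.1 and 40.1 in WT at 72 h LCM (log2 fold change 3.11, SE 0.39, adjusted p = 2.08e-07). PKP4-KO at 72 h HCM had 369, 331 and 303 CPM and WT 41.1, 44.5 and 114 (log2 fold change 2.33, SE 0.38, adjusted p = 9.92e-06). The spread was wide, since WT replicate 3 at 72 h HCM lay far above the other two. The difference of PKP4-KO from WT at 24 h HCM was not called (log2 fold change 0.82, SE 0.37, adjusted p = 0.0714). It was called without WT replicate 2 (log2 fold change 1.24, adjusted p = 0.0142) and with total counts (0.91, adjusted p = 0.00682). Likewise, Rescue at 72 h HCM (log2 fold change 0.84, SE 0.36, adjusted p = 0.0692) was called only without WT replicate 3 among the fits that left out 1 library (log2 fold change 1.47, adjusted p = 0.0038). With total counts this Ddit4 difference was called too (1.35, adjusted p = 2.1e-04). Asns, which makes asparagine, had smaller log2 fold changes than Ddit4. Its means in PKP4-KO were 602, 369.8, 524 and 479 CPM in the 4 conditions, against 302, 293, 350.0 and 343 in WT. The log2 fold changes were 0.99, 0.34, 0.58 and 0.48, all called, of which that at 24 h HCM (adjusted p = 0.0493) was lost in 5 of the 6 fits that left out 1 library (adjusted p = 0.0832 to 0.2). With total counts in place of TMM factors, Asns was called at 24 h LCM alone, with 0.40 at 24 h HCM (adjusted p = 0.0852), 0.20 at 72 h LCM (0.376) and -0.29 at 72 h HCM (0.176). In Rescue the log2 fold changes of Asns with TMM factors were 0.54, 0.43, 0.68 and 0.64, also called, while the calls of Asns and Ddit4 at 24 h HCM were each lost in 4 of the 6 fits that left out 1 library (adjusted p = 0.0518 to 0.114).

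Hspa5 and Xbp1, the markers of the ER branch, lay below WT in PKP4-KO cells at 24 h in both media, and neither was called lower at 72 h with TMM factors. With total counts, Hspa5 was called lower at 72 h in LCM (-0.82, adjusted p = 0.0156) and in HCM (-0.71, 0.0255). Hspa5 encodes BiP, the main chaperone of the ER lumen. At 24 h LCM, WT libraries had 265, 234 and 286 CPM and PKP4-KO 127, 160.4 and 181 (log2 fold change -0.74, SE 0.20, adjusted p = 0.00331). At 24 h HCM the values were 356, 306 and 383 in WT and 214, 211 and 198 in PKP4-KO (log2 fold change -0.74, SE 0.20, adjusted p = 0.00279). PKP4-KO lay below WT without overlap at 24 h in both media. At 72 h the groups overlapped, with 168, 166 and 168 CPM in WT and 171, 77.7 and 118 in PKP4-KO in LCM (log2 fold change -0.45, 95% interval -0.86 to -0.05, adjusted p = 0.06). This difference was called without PKP4-KO replicate 1 (log2 fold change -0.78, adjusted p = 0.0021). At 72 h HCM the log2 fold change was 0.09 (95% interval -0.31 to 0.50, adjusted p = 0.707), and it was -0.05 without WT replicate 3. Rescue had 371, 328 and 306 CPM at 72 h LCM, above WT (log2 fold change 0.9997, SE 0.20, adjusted p = 2.14e-04), and differed from WT by 0.21 at 24 h LCM, 0.28 at 24 h HCM and 0.49 at 72 h HCM, none of them called (adjusted p = 0.491, 0.36 and 0.0526). Against PKP4-KO, Rescue was higher in Hspa5 at 24 h LCM (0.95), 24 h HCM (1.02) and 72 h LCM (1.45). Rabepk overlaps Hspa5 on the other strand and had up to 1130 counts.

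Xbp1 encodes the transcription factor whose mRNA IRE1 splices. At 24 h, PKP4-KO had 24.4, 28.8 and 28.0 CPM in LCM and 31.6, 36.9 and 25.9 in HCM, and WT 37.5, 49.3 and 47.5 and 76.0, 67.5 and 89.7 CPM. All 6 PKP4-KO libraries were below all 6 WT libraries, by log2 fold changes of -0.73 (SE 0.15, adjusted p = 2.10e-04) in LCM and -1.30 (SE 0.15, adjusted p = 2.28e-08) in HCM. At 72 h HCM the direction with TMM factors was the opposite, with 96.0, 96.4 and 79.0 CPM in PKP4-KO and 65.3, 64.6 and 65.8 in WT (log2 fold change 0.47, SE 0.14, adjusted p = 0.00802). With total counts the log2 fold change there was -0.30 and was not called (adjusted p = 0.213). At 72 h LCM the difference was not called (0.20, 95% interval -0.09 to 0.50), although the groups did not overlap. Rescue was above WT at 24 h LCM, 72 h LCM and 72 h HCM, by 0.73, 1.30 and 0.44. The last call was lost without WT replicate 3 (adjusted p = 0.0501) or Rescue replicate 1 (0.0508). Rescue missed the threshold at 24 h HCM (log2 fold change 0.37, SE 0.14, adjusted p = 0.063). Ccdc117, on the other strand of Xbp1, had up to 386 counts.

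Whether the difference between PKP4-KO and WT changed with time and medium was tested as a difference of differences. In HCM the log2 fold change against WT was higher at 72 h than at 24 h in 8 of the 10 members, all but Asns and Sesn2, beside 26.6% of all tested genes. The step was 3.13, SE 0.37, adjusted p = 1.76e-07 on the log2 scale for Ddit3, 2.67, SE 0.26, adjusted p = 9.82e-09 for Trib3 and 2.31, SE 0.27, adjusted p = 1.53e-07 for Chac1. The Xbp1 difference turned from negative to positive, as that of Chac1 did. With total counts it stayed negative in Xbp1 (-1.24 at 24 h and -0.30 at 72 h). The step was 1.77, SE 0.21, adjusted p = 1.56e-07 for Xbp1, 2.05, SE 0.43, adjusted p = 6.58e-04 for Atf3 and 1.34, SE 0.25, adjusted p = 1.94e-04 for Atf4. The weakest were Ddit4 (1.51, SE 0.52, adjusted p = 0.0297) and Hspa5 (0.84, SE 0.28, adjusted p = 0.0249), which lost the call in 6 and 4 of the 12 fits that left out 1 library (adjusted p = 0.0524 to 0.143), and the Hspa5 step was -0.018 with total counts. In LCM the same test called Xbp1 (0.93, SE 0.21, adjusted p = 0.00489) alone, beside 5.25% of all genes. At 24 h the log2 fold change against WT was lower in HCM than in LCM for Atf4, Ddit3, Trib3 and Chac1, with differences of -1.11, -1.37, -1.96 and -1.45 (adjusted p = 0.00861, 0.0254, 2.62e-05 and 0.00107), beside 4.02% of all genes. At 72 h it was higher in HCM for Ddit3 (1.38, SE 0.36, adjusted p = 0.0163), beside 5.74%. Of these, the Ddit3 calls were lost in 5 of 12 fits at 24 h (adjusted p = 0.0696 to 0.0934) and in 4 of 12 at 72 h (0.0503 to 0.0585) when 1 library was left out.

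**Figure D3:**
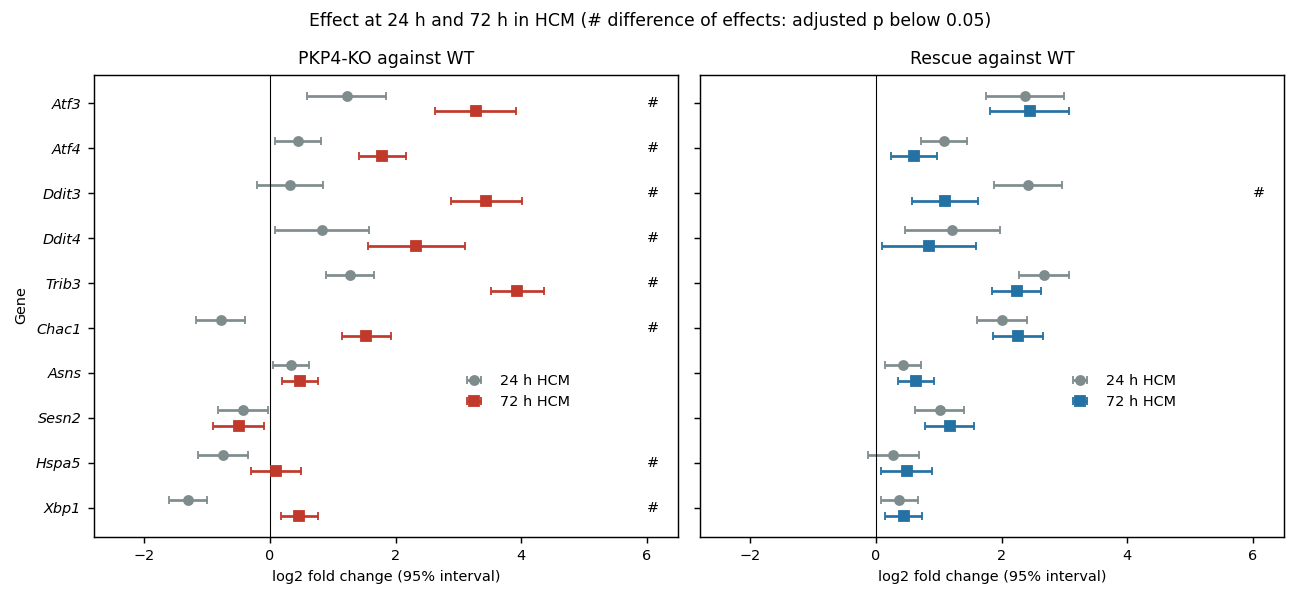
log2 fold change against WT with its 95% interval (computed from edgeR's F statistic) at 24 h (grey circles) and 72 h (coloured squares) in HCM, for PKP4-KO (left) and Rescue (right), with # where the difference between both times had an adjusted p below 0.05. The mark stands at 8 genes in PKP4-KO and at Ddit3 in Rescue, where the 72 h value was the lower one.

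In Rescue the difference from WT followed another course. Between 24 h and 72 h in HCM it fell for Ddit3 (-1.32, SE 0.36, adjusted p = 0.0173), the only member called, beside 10.5% of all tested genes, and not without WT replicate 1 or Rescue replicate 2 at 24 h or Rescue replicate 2 at 72 h (adjusted p = 0.0523 to 0.0669). In LCM no member was called by edgeR (3 at an unadjusted p below 0.05, 3 by DESeq2), beside 3.91% of all genes. At 72 h the log2 fold change against WT was lower in HCM than in LCM for Atf4 (-1.29, SE 0.25, adjusted p = 7.06e-04), Ddit3 (-3.01, SE 0.36, adjusted p = 1.00e-06), Trib3 (-1.36, SE 0.26, adjusted p = 6.17e-04) and Xbp1 (-0.85, SE 0.20, adjusted p = 0.00451), beside 14.6%. At 24 h the media did not differ in this respect for any member by edgeR (0 at an unadjusted p below 0.05, 0 by DESeq2), beside 0.0662% of all genes.

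Compared directly with PKP4-KO, Rescue had more of the ER markers and of Chac1 and Sesn2 in most conditions. With TMM factors it had less of Atf3, Atf4, Ddit3, Ddit4 and Trib3 at 72 h HCM. At 24 h LCM, 5 members were higher (Ddit3, Chac1, Sesn2, Hspa5, Xbp1) and Asns was lower, beside 33.7% of all tested genes called. At 24 h HCM, 8 were higher, all but Ddit4 and Asns, beside 40.8%. At 72 h LCM, Ddit3, Chac1, Sesn2, Hspa5 and Xbp1 were higher, by log2 fold changes between 1.09 and 2.08, beside 41.5%. Atf3, Atf4, Ddit3, Ddit4 and Trib3 were lower at 72 h HCM, at log2 fold changes of -0.83, -1.18, -2.35, -1.49 and -1.70, while Chac1 and Sesn2 were higher by 0.73 and 1.67, beside 66.7% of all genes. The Atf3 call was lost without Rescue replicate 3 (adjusted p = 0.0906), and that of Asns at 24 h LCM without PKP4-KO replicate 2 (0.0538) or Rescue replicate 3 (0.0751). Without TMM factors, Atf3 and Atf4 at 72 h HCM were at 0.34 and 0.0019, both uncalled, Ddit4 at -0.31 (adjusted p = 0.269) was also uncalled, and the median of all tested genes moved from 0.20 to 1.37. Under that scaling Asns (1.34, adjusted p = 3.7e-07), Hspa5 (1.58, 1.1e-05) and Xbp1 (1.15, 1.9e-05) were called higher in Rescue. Ddit3 (-1.17) and Trib3 (-0.52) were still called lower.

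The medium by itself moved few members in WT. From LCM to HCM, Xbp1 rose in WT at 24 h (log2 fold change 0.80, SE 0.15, adjusted p = 2.25e-04), the only member called, beside 14.2% of all tested genes. At 72 h Xbp1 (0.52, SE 0.14, adjusted p = 0.0102) and Atf4 (0.50, SE 0.18, adjusted p = 0.0439) were higher in HCM, beside 21.4%. None of these 3 WT calls was kept without TMM factors (adjusted p = 0.0901, 0.493 and 0.25), that of Xbp1 at 72 h was lost without LCM replicate 2 (0.0577), and that of Atf4 in 4 of the 6 fits that left out 1 library (without LCM replicate 1, 2 or 3 or HCM replicate 3, 0.0599 to 0.326). In PKP4-KO at 24 h, 5 members were lower in HCM, beside 2.83% of all genes. These were Trib3 (-1.82), Chac1 (-1.096), Ddit3 (-0.91), Atf4 (-0.80) and Asns (-0.70), of which Trib3 alone was called with only both groups in the fit (adjusted p otherwise 0.0571 to 0.27). The Ddit3 call was lost in every fit that left out 1 library (adjusted p = 0.0637 to 0.231). That of Atf4 was lost without LCM replicate 1 or HCM replicate 1 or 2 (0.0516 to 0.0654). In PKP4-KO at 72 h, 6 members were higher in HCM, beside 32.6%. They were Ddit3 (1.41), Chac1 (1.07), Xbp1 (0.78), Atf3 (0.72), Atf4 (0.64) and Hspa5 (0.51), and of these 6 Ddit3 alone was called without TMM factors, under which Asns (-0.84), Trib3 (-0.63) and Ddit4 (-0.64) were called lower (adjusted p = 4.54e-04, 0.00573 and 0.0408). Those of Atf3 and Hspa5 were lost in 6 and 4 of the 6 fits that left out 1 library (adjusted p = 0.0512 to 0.289). Rescue at 24 h had Xbp1 higher in HCM (0.43, SE 0.14, adjusted p = 0.0486), beside 12%, a call lost in 5 of the 6 fits that left out 1 library (adjusted p = 0.0502 to 0.296). In Rescue at 72 h, Ddit3 (-2.98), Trib3 (-1.54), Atf4 (-0.79) and Hspa5 (-0.56) were lower in HCM, beside 24.9%, where the Hspa5 call was lost in 5 of the 6 such fits (0.0719 to 0.123), and 3 of these genes were among the 6 that were higher in PKP4-KO.

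Hspa5 was lower at 72 h than at 24 h in WT. In LCM it was the only member called (log2 fold change -0.64, SE 0.20, adjusted p = 0.0325), beside 9.96% of all genes, and the call was lost in 5 of the 6 fits that left out 1 library (adjusted p = 0.0881 to 0.118). In HCM the difference was larger (log2 fold change -1.0995, SE 0.20, adjusted p = 2.16e-04). Ddit4 was the other member called in WT in HCM (log2 fold change 1.498, SE 0.37, adjusted p = 0.00514), beside 17.8%, and was not called without replicate 3 at 72 h (adjusted p = 0.112). In PKP4-KO in LCM, Ddit4 (2.16), Atf3 (1.57), Ddit3 (1.03), Xbp1 (0.96) and Trib3 (0.78) were higher at 72 h and Sesn2 (-0.62) was lower, beside 26.1%. The Sesn2 call was lost in 3 of the 6 fits that left out 1 library (adjusted p = 0.0567 to 0.125). In PKP4-KO in HCM, 8 members were higher at 72 h and none lower, beside 55.8% of all genes. The largest of these steps were those of Ddit3 (3.36, SE 0.27, adjusted p = 4.48e-11), Ddit4 (3.01, SE 0.39, adjusted p = 2.77e-07) and Trib3 (2.65, SE 0.19, adjusted p = 6.04e-12). Without TMM factors, Asns, here at 0.37, was called lower in place of higher (-0.71, adjusted p = 0.00121), Hspa5 (-1.34, 1.03e-04) and Sesn2 (-0.77, 0.00142) were called lower, and Xbp1 was not called (0.44, 0.0656). In Rescue in LCM, Ddit3 (1.75), Trib3 (0.83), Chac1 (0.63) and Xbp1 (0.59) were higher at 72 h, beside 9.81%. In Rescue in HCM, Ddit4 (1.13), Sesn2 (0.51) and Asns (0.43) were higher and Ddit3 (-1.09) and Hspa5 (-0.89) lower, beside 24.3%. The Sesn2 step in Rescue in HCM was lost with the replicate number as a block (adjusted p = 0.054). When 1 library was left out, the calls of Chac1 and Xbp1 in Rescue in LCM were lost in 5 and 1 of 6 fits, and those of Sesn2, Ddit4 and Asns in Rescue in HCM in 4, 3 and 3 (adjusted p = 0.0578 to 0.251 over these).

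The sign of 3 members between PKP4-KO and WT at 72 h HCM depended on the scaling. With total counts in place of TMM factors, the median of all 15114 genes between PKP4-KO and WT at 72 h HCM was -0.83 in place of -0.07. The share of called genes that were higher was then 13.5% in place of 42.2%. Asns, Hspa5 and Xbp1 turned to -0.29, -0.71 and -0.30, of which Hspa5 was called (adjusted p = 0.0255). Trib3, Ddit3, Atf3, Ddit4, Atf4 and Chac1 stayed positive at 3.18, 2.68, 2.48, 1.67, 1.05 and 0.80. Relative to the shifted median, Asns, Hspa5 and Xbp1 were at 0.55, 0.12 and 0.53. In the other PKP4-KO comparisons with WT the share of higher genes among those called moved from 48.9% to 34.1% at 24 h LCM, from 48.2% to 53.1% at 24 h HCM and from 47.3% to 25.7% at 72 h LCM. In Rescue against WT it moved from 54.2% to 43.9% at 24 h LCM, from 51.0% to 66.2% at 24 h HCM and from 53.9% to 80.1% at 72 h HCM.

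**Figure D4:**
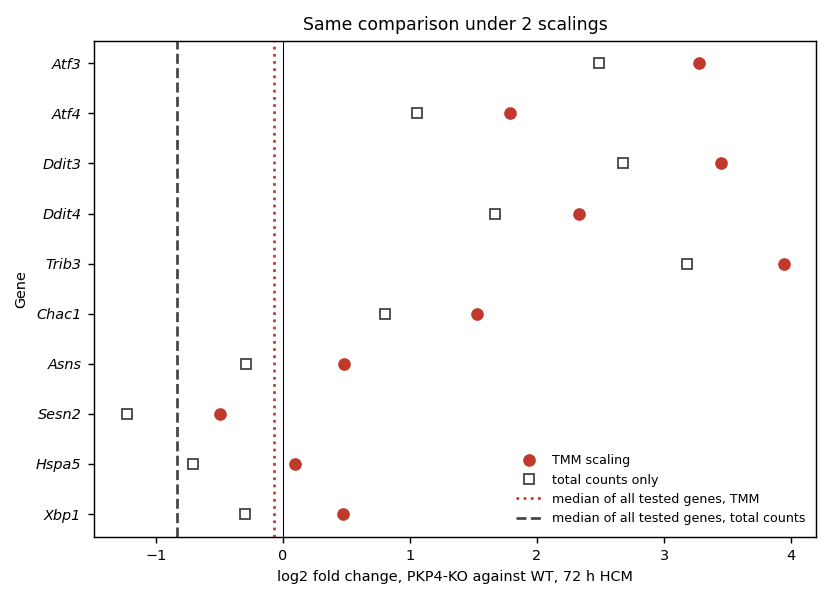
log2 fold change of the 10 genes between PKP4-KO and WT at 72 h HCM with TMM factors (filled circles) and with total counts (open squares), and the median of all tested genes under each scaling (vertical lines at -0.07 and -0.83). Trib3, Ddit3 and Atf3 stay above 2 under both scalings, whereas Asns, Hspa5 and Xbp1 lie on opposite sides of 0.

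Other genes of the pathways were taken from 8 lists. Beside their counts stand the shares of all tested genes at 24 h LCM and HCM, then at 72 h LCM and HCM. In PKP4-KO 19.7%, 20.7%, 21.3% and 21.9% were higher than in WT and 20.6%, 22.2%, 23.8% and 29.9% lower. In Rescue 13.5%, 11.8%, 17.9% and 19.5% were higher and 11.4%, 11.4%, 14.6% and 16.7% lower. Of 18 genes of amino acid transport and of serine and one-carbon metabolism linked to ATF4, 14, 13, 15 and 16 were higher in Rescue than in WT at 24 h LCM and HCM and then at 72 h LCM and HCM, an order kept below. In PKP4-KO, 8, 5, 7 and 3 were higher, while 3, 5 and 3 were lower in the last 3 conditions. Mthfd2, a mitochondrial folate enzyme, rose in PKP4-KO at 72 h HCM from 71.9 ± 5.94 to 186 ± 14.2 CPM (SD, n = 3; log2 fold change 1.37, SE 0.12, adjusted p = 3.98e-10). Shmt2, which makes glycine from serine in mitochondria, was higher there (1.15) and at 24 h HCM (1.19), while the amino acid transporter Slc1a5 (-1.15 at 72 h HCM), Pycr1 of proline synthesis (-1.35 at 24 h HCM) and the glycine transporter Slc6a9 (-1.04 at 24 h HCM) were lower. Of 12 tRNA synthetases, 7, 5, 9 and 9 were higher in Rescue. In PKP4-KO 9 were higher at 24 h LCM and 2 at 72 h LCM, and in HCM the genes called were lower, 2 at 24 h and 3 at 72 h. This list depended on the scaling, since at 72 h HCM DESeq2 called 4 higher, and with total counts 11 of the 12 were lower, as were 14 of the 18 amino acid genes. With total counts 9401 of all 15114 tested genes were called there, 13.5% of them higher and the others lower. The values for Nars and Cars at 24 h HCM were -0.61 and -0.60, and those for Lars, Eprs and Cars at 72 h HCM -0.77, -0.74 and -0.33. When 1 library was left out, the calls at 72 h HCM of Lars and Cars were each lost in 4 of 6 fits and that of Eprs in 2 (adjusted p = 0.0533 to 0.129), and that of Nars at 24 h HCM in 1 (0.0544).

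Among 15 tested regulators linked to ATF4 or CHOP, 6, 4, 9 and 8 were higher and 1, 2, 1 and 3 lower in PKP4-KO. In Rescue 9, 7, 9 and 8 were higher and none lower. Their median log2 fold changes in PKP4-KO were 0.49, 0.16, 1.20 and 0.73. Stc2, a secreted glycoprotein, was at 38.4 ± 5.06 CPM in PKP4-KO and 38.7 ± 3.18 in Rescue at 72 h HCM, while WT had 0.926 ± 0.184 (log2 fold change 5.40, SE 0.34, adjusted p = 2.43e-13 for PKP4-KO against WT). The cytokine Gdf15 was higher in PKP4-KO at 24 h HCM (log2 fold change 3.06, SE 0.69, adjusted p = 6.47e-04), from a low level of 0.194 ± 0.229 CPM in WT to 1.72 ± 0.723. Ndrg1, which also responds to hypoxia, changed its direction with time in HCM, from -1.88 at 24 h to 3.81 at 72 h, at 1389.5 ± 202 CPM in PKP4-KO against 99.2 ± 9.49 in WT at 72 h. Ero1a, an oxidase of the ER lumen, was higher at 72 h HCM (2.22).

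The genes of the ER itself were mixed. Of 17 chaperones and folding enzymes, 3, 1, 4 and 8 were higher and 4, 5, 3 and 3 lower in PKP4-KO. Of all tested genes, 19.7%, 20.7%, 21.3% and 21.9% were higher and 20.6%, 22.2%, 23.8% and 29.9% lower there. Pdia3, a disulfide isomerase, was higher in HCM at 24 h (0.97) and 72 h (1.56), and Manf, a secreted ER stress factor, at 72 h (1.65). The co-chaperones Dnajc10 (-1.19 at 24 h and -1.82 at 72 h) and Dnajc3 (-0.81 at 24 h) were lower in HCM. In Rescue 5, 2, 8 and 2 of the 17 were higher. Of 13 tested genes of ER-associated degradation and translocation, 3, 4 and 7 were higher at 24 h LCM, 72 h LCM and 72 h HCM, and 3, 5, 3 and 1 were lower in the 4 conditions in PKP4-KO. At 24 h HCM the lower ones included the coat protein gene Sec24d (-1.02), the ubiquitin ligase Syvn1 (-0.77) and the lectin Os9 (-0.73), and at 72 h HCM Sec61b of the translocon (1.71), Herpud1 (0.98) and Derl2 (0.94) were higher, of which Herpud1 and Derl2 were not called with total counts (0.21 and 0.19). In Rescue 4, 2, 8 and 4 were higher and 3 lower, the latter at 72 h HCM.

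Of 7 genes for eIF2alpha, its kinases and its phosphatase subunits, 2, 1, 2 and 1 were higher and 1, 1, 3 and 4 lower in PKP4-KO. The kinase gene Eif2ak2 (PKR) fell at 24 h HCM (-1.30) and 72 h HCM (-2.18), and Eif2ak4 (GCN2) and Eif2ak1 (HRI) at 72 h HCM (-1.32 and -0.65), whereas Eif2s1, which encodes eIF2alpha, was the 1 gene higher at 24 h HCM (0.29), a call lost in 4 of the 6 fits that left out 1 library (adjusted p = 0.0518 to 0.132). Of 9 tested sensors and proteases of the ER, 2, 1, 1 and 2 were higher and 2, 1, 5 and 3 lower. Among them Ern1, the gene of IRE1, was lower at 72 h HCM (-0.71), a call lost in 4 of the 6 such fits (0.0545 to 0.164) and by DESeq2 (0.0591). Creb3l2 was lower at both times in HCM (-2.95 and -3.15), while Creb3 was higher (0.38 and 1.03). In Rescue, 1, 2, 1 and 3 of the 7 genes were higher, with 1 lower at 72 h LCM. Of the sensor list 3, 2, 3 and 2 were higher and 2, 3, 2 and 1 lower in Rescue.

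As a comparison, 12 heat shock genes were read in the same way, 10 of them cytosolic and 2, Hspd1 and Hspe1, encoding the mitochondrial chaperonin and its cofactor. In PKP4-KO, 4, 3, 3 and 2 were higher and 4, 4, 5 and 6 lower, among them Hsp90aa1 (-1.45 at 24 h and -2.30 at 72 h HCM), Hsph1 (-1.47 and -2.44) and Hspb1 (-2.16 at 24 h HCM), while Hspe1 was higher at 72 h HCM (1.87). In Rescue, 1, 1, 0 and 4 were higher and 5, 3, 8 and 1 lower. The lists are described by these counts beside the shares of all genes given above, and no list was tested as a whole. With total counts at 72 h HCM, 4 chaperones were higher and 6 lower in PKP4-KO, 1 gene of ER-associated degradation was higher and 7 lower, and 10 heat shock genes were lower. Beside these stand 9401 of all 15114 tested genes called with total counts, 13.5% of them higher and the others lower.

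**Figure D5:**
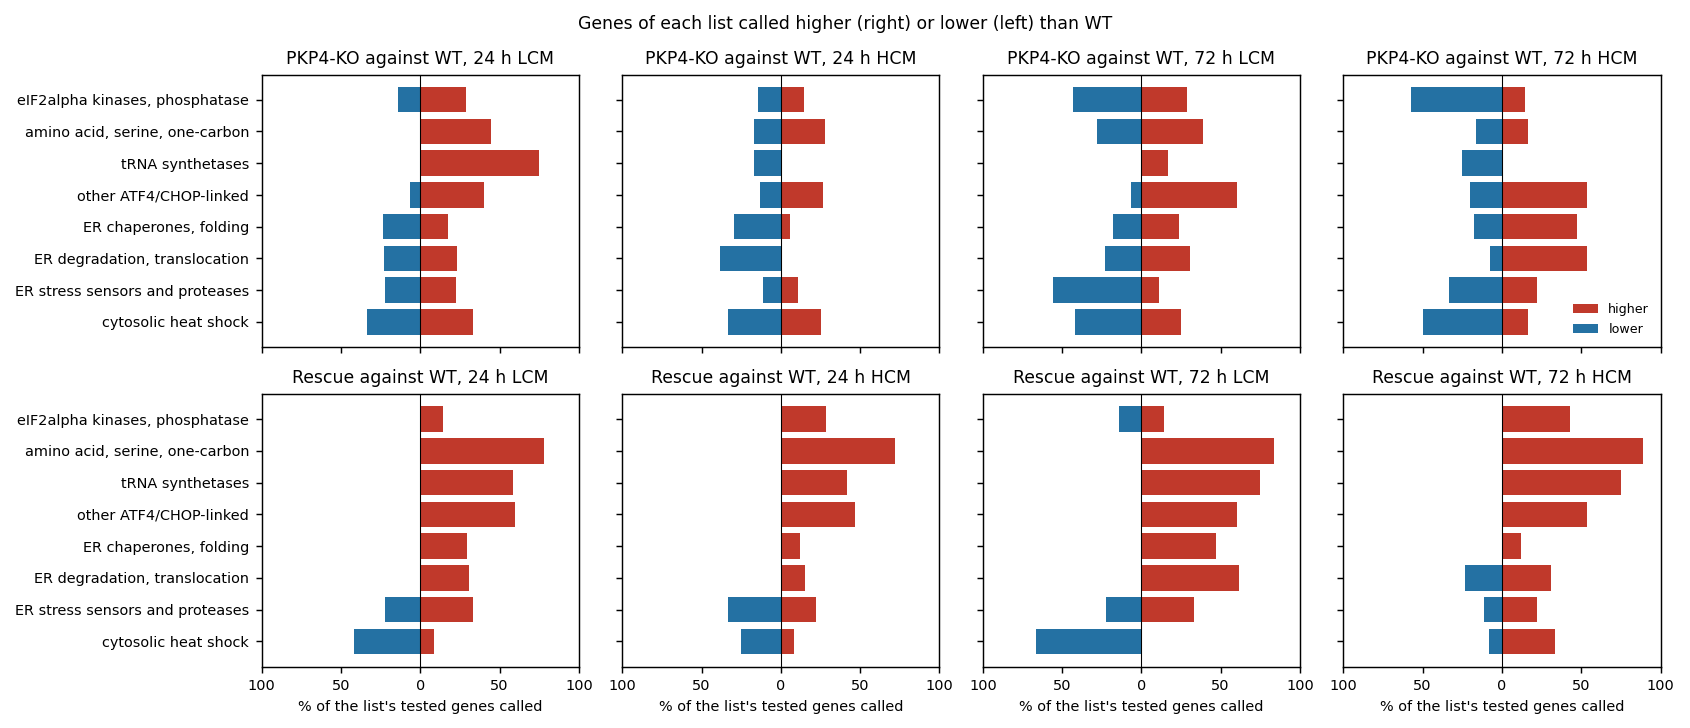
Share of the tested genes of each of the 8 lists called higher (red, to the right) or lower (blue, to the left) than WT by edgeR, for PKP4-KO (upper row) and Rescue (lower row) in the 4 culture conditions. The amino acid list reaches 16 of 18 genes in Rescue at 72 h HCM, and the heat shock list 6 of 12 lower genes in PKP4-KO at 72 h HCM.

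The members fell into patterns that can be described by the correlation of their group means over the 12 groups (log2 of CPM + 1, Pearson's r, no test, since groups share genotype and medium). Trib3 ran closest to Atf4 (r = 0.97), then Ddit3 (0.89), Atf3 (0.89), Asns (0.87) and Ddit4 (0.87). With Hspa5 its r was -0.10, and with Sesn2 0.25. Sesn2 ran with Chac1 (r = 0.82). Among the 8127 other tested genes whose mean reached 10 CPM, those most like Trib3 were Ap1g2 (r = 0.971), Stc2 (0.945), Mthfd2 (0.943), Dnaja3 (0.942) and Aldh2 (0.937). Those most like Hspa5 were Ankk1 (0.936), Cdh1 (0.921), Nras (0.917), Erbb2 (0.910) and Sec24d (0.906).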

How the data were processed

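Per the labels and the study's methods, the authors used HISAT2 2.1.0 to align NovaSeq paired-end reads of a stranded poly(A) library kit to mm39, extended by the GFP-PKP4 transgene, dropped secondary alignments (SAMtools 1.10) and counted per gene with featureCounts 2.0.0 on the Ensembl annotation of GRCm39. The deposited values are these raw counts. The strand setting of the counting is not given in the sources used here.

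The 36 libraries were fitted jointly, each of the 12 groups with its own mean, in edgeR 4.0.16 (R 4.3.3), with filterByExpr, TMM factors and the quasi-likelihood test on 24 residual degrees of freedom. P-values were adjusted after Benjamini and Hochberg over 15114 genes, and calls were made at an adjusted p below 0.05. The SE is no output of edgeR. It was computed as the absolute log2 fold change over the square root of the F statistic of that test. The 95% intervals were built from this SE with a t distribution on the prior and residual degrees of freedom. A difference of differences was tested as a contrast of the same model. Alternatives were DESeq2 1.42.0, total counts in place of TMM factors, no filter, a floor of 10 counts per library, a separate fit of the groups compared, the replicate number as a block, and each library of the groups compared left out in turn. The edgeR fit was tested on simulated counts with the same mean of a gene in every group. A small share of genes was changed there, evenly up and down, in PKP4-KO at 24 h HCM. Such counts hold no shift of most genes, so they cannot check the scaling of PKP4-KO at 72 h HCM. Totals were 13602728 to 22467187 counts per library, and counting error depends on the count of each gene, which among the members was lowest for Atf3, at 12 in a WT library.

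The members, the lists and the markers were chosen with earlier results of these data known. The text names all 10 members and, of each list, the 3 genes with the largest called difference between PKP4-KO and WT at 24 h HCM and at 72 h HCM. Promoter windows came from RefSeq (GRCm38.p6). Replicate pairs all differed by more than sampling noise. Same-numbered libraries were not treated as paired in the main fit of any comparison. All 3 correlations of their deviations exceeded 0.1 in 4 of 24 comparisons, and for these too the p-values given ignore a pairing.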

Additional observations from a re-analysis of the deposited data

Results flagged for a closer look

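The differences of differences that passed edgeR's quasi-likelihood test (adjusted p below 0.05, 3 libraries a group) are listed for a closer look, because the effect against WT then differed between times or between media. In HCM the log2 fold change of PKP4-KO against WT was higher at 72 h than at 24 h by 3.13 for Ddit3, 2.67 for Trib3, 2.31 for Chac1, 2.05 for Atf3, 1.77 for Xbp1, 1.51 for Ddit4, 1.34 for Atf4 and 0.84 for Hspa5. In LCM it was higher at 72 h by 0.93 for Xbp1. Between the media at 24 h, the PKP4-KO effect differed by -1.96 for Trib3, -1.45 for Chac1, -1.37 for Ddit3 and -1.11 for Atf4 (HCM minus LCM), and at 72 h by 1.38 for Ddit3. The Rescue effect on Ddit3 differed by -1.32 between 72 h and 24 h in HCM. Between the media at 72 h, the Rescue effect differed by -3.01 for Ddit3, -1.36 for Trib3, -1.29 for Atf4 and -0.85 for Xbp1.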

How the results depend on the processing

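Of 170 log2 fold changes of members (all 80 against WT and the 90 called elsewhere), DESeq2 changed 3 calls and reversed none, and a minimum of 10 counts in every library changed 2. Outside the comparisons with WT, calls gained under an alternative could not enter these numbers, since only members already called were followed. There DESeq2 called 6 members in place of 4 for the PKP4-KO effect between media at 24 h. For the Rescue effect between times in LCM it called 3 in place of 0. Total counts in place of TMM factors ended 24 calls without a change of sign, added 4 and reversed 11 values, among them Sesn2 between PKP4-KO and WT at 24 h LCM (-0.083), Xbp1 at 72 h LCM (-0.17), and Asns (-0.29), Hspa5 (-0.71) and Xbp1 (-0.30) at 72 h HCM. The others were Atf3 (0.34) and Atf4 (0.0019) in Rescue against PKP4-KO at 72 h HCM, Atf4 (-0.043) and Hspa5 (-0.21) from LCM to HCM in PKP4-KO at 72 h, Asns (-0.71) from 24 h to 72 h in PKP4-KO in HCM, and the Hspa5 step of the PKP4-KO effect in HCM (-0.018). Without WT 72 h HCM replicate 3, the difference of Hspa5 between PKP4-KO and WT there was -0.052, the lowest of its 6 values with 1 library left out, which reached 0.175.

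The number of members called between PKP4-KO and WT at 24 h HCM was 4 in place of 7 with only both groups in the fit. Between media it was 1 in place of 5 in PKP4-KO at 24 h with only both groups, 0 in place of 1 in WT at 24 h with total counts, and 0 in place of 1 in Rescue at 24 h without a filter or with only both groups. In WT at 72 h it was 0 in place of 2 without a filter, and 1 with total counts or with only both groups. Between times it was 0 (no filter) or 3 (only both groups) in place of 1 in WT in LCM, 1 in place of 2 in WT in HCM with only both groups, 2 in place of 4 in Rescue in LCM with total counts or only both groups, and 3 in place of 5 in Rescue in HCM without a filter. Among the differences of differences it was 2 in place of 1 for PKP4-KO between times in LCM with total counts, 2 in place of 4 for PKP4-KO between media at 24 h with only the groups compared, 2 in place of 1 at 72 h by DESeq2, and for Rescue between times in LCM 1 with total counts, 1 with at least 10 counts and 3 by DESeq2 in place of 0. Apart from the construction of these fits, the cause was not tested.

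With 1 library left out, the counts of members called against WT ranged from 5 to 7 in PKP4-KO at 24 h HCM and from 6 to 9 in Rescue at 24 h HCM. Between media they ranged from 0 to 2 in WT at 72 h, from 3 to 4 in PKP4-KO at 24 h and from 0 to 1 in Rescue at 24 h, and between times from 0 to 1 in WT in LCM, 1 to 2 in WT in HCM, 2 to 4 in Rescue in LCM and 2 to 6 in Rescue in HCM. For the PKP4-KO effect they ranged from 1 to 2 between times in LCM and from 0 to 2 between media at 72 h, and for the Rescue effect between times in HCM from 0 to 1.

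With the replicate number as a block, 27 of 32 counts of members stayed as they were. It was 1 in place of 2 between media in WT at 72 h, 0 in place of 1 in Rescue at 24 h, and 1 lower in 3 comparisons, from 7 to 6 between PKP4-KO and WT at 24 h HCM (Asns, adjusted p = 0.0564), from 5 to 4 between media in PKP4-KO at 24 h and from 5 to 4 between times in Rescue in HCM. Correlations of same-numbered libraries ran from -0.896 to 0.851, and 6 of 36 libraries correlated best with their own number.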
